A study of Mus musculus with 25 samples.

Results

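Deleting the initiator caspase Casp8 in mouse bone marrow neutrophils that already lacked Mlkl and Ptpn6 moved no gene past the adjusted threshold in edgeR and 5 in DESeq2, of 15067 tested. Among the gene lists examined red cell genes lay lower. Basophil genes, early granule genes (mainly without Ripk3) and, through a single library, stromal genes lay higher. The comparison set 4 Casp8-deleted libraries against 5 Casp8-intact libraries, 9 of the 25 in the series, chosen by their genotype labels alone. Ripk3 was present in 4 of the 9 and absent from 5, and its status entered the model as a block. The series profiled neutrophil messenger RNA (100 bp paired reads) across mouse genotypes to ask how the phosphatase SHP-1, encoded by Ptpn6, holds back inflammation that runs through caspase-8 or through Ripk3 and Mlkl.

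The groups were Mlkl-/- Ptpn6{delta}PMN (2 libraries) and Casp8{delta}PMN Mlkl-/- Ptpn6{delta}PMN (2 libraries), which keep Ripk3, and Ripk3-/- Mlkl-/- Ptpn6{delta}PMN (3 libraries) and the same genotype with Casp8{delta}PMN added (2 libraries), which do not. All mice were female, on the C57BL/6J background, 6 to 13 weeks old and labelled as not inflamed. All lacked Mlkl in the whole body and Ptpn6 in the cells that the labels write as {delta}PMN, so no library here shows the effect of Casp8 loss with SHP-1 or Mlkl present. The labels do not name the Cre line behind {delta}PMN. Cells came from the band between 68% and 78% Percoll, a density step without a sort, so other marrow cells of that density can be present. Nothing in the labels says which libraries came from separate animals, so p-values measure the spread between these libraries, which may in part be technical.

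Caspase-8 is a protease that death receptors recruit through the adaptor FADD. It cleaves effector caspases to start apoptosis, it cuts the kinases RIPK1 and RIPK3, which restrains necroptosis, and it also acts in inflammatory gene expression and interleukin-1 processing. MLKL, phosphorylated by RIPK3, breaks the plasma membrane in necroptosis. Neutrophils are short-lived cells in which both pathways are present.

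Library totals ran from 21598063 to 23187557 estimated counts. Neutrophil genes dominated all 9 libraries: 13 defining markers, among them S100a8, S100a9, Ly6g and Csf3r, summed to 133100 and 119300 CPM (counts scaled to a common library size) in the Casp8-intact libraries with Ripk3 and 126600 and 125600 in the Casp8-deleted ones. Without Ripk3 the sums were 58820, 77650 and 110400 (Casp8 intact) and 82550 and 100100 (Casp8 deleted). Within the Ripk3-/- Mlkl-/- Ptpn6{delta}PMN group the third replicate stood apart. On the first principal component, which held 42.5% of the variance, it lay at -34.6, beside the libraries with Ripk3 (-40.0 to -9.33), while replicates 1 and 2 lay at 65.7 and 51.5. B cell markers (11 tested of 12) followed the same split, with sums of 1750, 1260 and 404.7 CPM in the 3 replicates, 545.4 and 934.5 in the Casp8-deleted libraries without Ripk3, and 391.6 to 507.8 in the 4 libraries with Ripk3. Their part in the results below was not tested.

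The targeted gene was lower but not absent. Casp8 (chr1:58795233-58847503, GRCm38.p6) stood at 19.9 and 31.1 CPM in the Casp8-intact libraries with Ripk3 and at 16.6 and 20.4 in the Casp8-deleted ones. Without Ripk3 it stood at 32.5, 29.7 and 29.5 with Casp8 intact and 15.6 and 22.5 with Casp8 deleted. The arms separated fully without Ripk3 and overlapped with Ripk3, where replicate 1 of the intact group (19.9 CPM) lay below replicate 2 of the deleted group (20.4 CPM). The log2 change was -0.58 (SE 0.17), 0.668 times the intact level, at an edgeR unadjusted p of 0.00506 and an adjusted p = 1.00, and it ran from -0.70 to -0.45 when each library was left out in turn. Counts are gene totals, so transcripts that lack an excised exon are not separated from intact ones. Ripk3, the necroptosis kinase, had 54, 88, 63 and 108 counts in the 4 libraries that keep it and 0 to 2 in the 5 that do not. Ptpn6 lay between 170.4 and 297.0 CPM in all 9 libraries, with a log2 change of 0.09 (SE 0.13). All 9 carry the Ptpn6 deletion by label, so these gene totals, with no undeleted library beside them, cannot show it. Mlkl lay between 0.215 and 1.54 CPM.

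No gene passed an adjusted p under 0.05 in edgeR's quasi-likelihood test on the additive model, which is 0% of 15067 genes. At an unadjusted p under 0.05 there were 469 genes (3.11%), 257 higher (1.71%) and 212 lower (1.41%) with Casp8 deletion. With no effect on any gene, a calibrated test puts on average a share of 0.05 under that level, more than the 3.11% seen. DESeq2, run on the same libraries, called 5 (0.0332%): Dok2, AA388235 and Baiap3 higher, Acadl and Il1r2 lower. Without replicate 3 of the Ripk3-/- Mlkl-/- Ptpn6{delta}PMN group edgeR again called none, and 1268 genes had an unadjusted p under 0.05.

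The Casp8 effect in the 2 Ripk3 backgrounds, measured on libraries that share no sample, had the same sign for 6363 of 15067 genes (42.2%). Across genes, which are not independent replicates, the Pearson correlation of the 2 sets of log2 changes was -0.09 and the Spearman correlation -0.14. Genes whose arms did not overlap in either background, with the same sign in both, numbered 385 (2.56%), against 630 (4.18%) that separated in both backgrounds in opposite directions. Thus more genes parted in opposite directions than in the same one. With 2 or 3 libraries a group some genes part either way by the order of libraries alone, a share that was not estimated. The 24 genes named below lay, by their selection rule, on the shared diagonal.

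**Figure D1:**
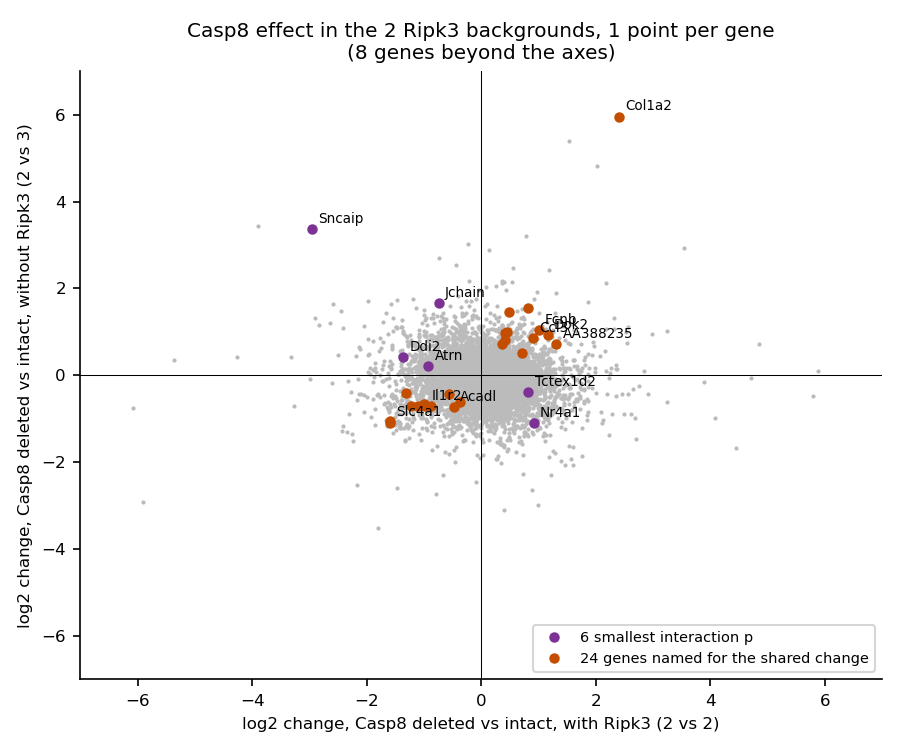
Each grey point is a gene, placed by its log2 change with Casp8 deletion where Ripk3 is present (x axis, 2 libraries against 2) and absent (y axis, 2 against 3). The 24 genes named for a shared change (orange, chosen for equal signs) lie at the lower left and upper right, and the 6 with the smallest interaction p (purple) at the upper left and lower right. 8 genes lie beyond the axis limit of 7.

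Among the 12 genes with the smallest p on the higher side (at a mean of 5 CPM or more, with the same sign in both backgrounds), Dok2 came first. Dok2 encodes an adaptor that dampens signalling below tyrosine kinases in myeloid cells. It stood at 41.6 and 32.7 CPM with Casp8 and 71.7 and 94.2 without Casp8 where Ripk3 was present, and at 50.3, 45.00 and 34.6 against 58.9 and 106 where Ripk3 was absent. All 4 deleted libraries lay above all 5 intact ones, as was so for 0.684% of all genes on the higher side. Selection by small p favours such a separation, here and for the other genes named by that rule. The log2 change was 1.03 (SE 0.19), 2.04 times the intact level, with an edgeR adjusted p = 1.00 and a DESeq2 adjusted p = 0.0136. Its annotated span (chr14:70765889-70778494) overlaps that of Xpo7 on the other strand by 4976 bases, and Xpo7 lay lower in the same libraries, so reads in the shared stretch may have been divided between them.

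AA388235 (chr17:33981492-33985358) stood at 6.32 and 5.21 CPM with Casp8 and 16.4 and 12.2 without it in the libraries with Ripk3, and at 5.23, 5.60 and 5.71 against 8.44 and 9.72 in those without Ripk3. Again no deleted library overlapped an intact one. Its log2 change was 0.99 (SE 0.18), with a DESeq2 adjusted p = 0.00718, and it was the gene that edgeR called when 23 libraries of the series were fitted together (adjusted p = 0.0286). Baiap3 (chr17:25242659-25256364), a Munc13-family protein of vesicle release, stood at 13.6 and 14.6 CPM against 18.4 and 18.99 with Ripk3 and 9.59, 10.8 and 11.3 against 19.6 and 21.6 without it (log2 change 0.71, SE 0.14, DESeq2 adjusted p = 0.0493). Both arms were tight within each background, and the 4 deleted libraries lay above the 5 intact ones.

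Fcnb, the soluble pattern recognition lectin ficolin B of myeloid cells, stood at 20.8 and 31.6 CPM against 40.6 and 64.4 with Ripk3 and at 10.95, 22.6 and 25.6 against 38.9 and 42.3 without Ripk3 (log2 change 1.03, SE 0.24). Atp6v1e1, a subunit of the proton pump that acidifies vesicles, stood at 90.5 and 76.3 CPM against 125 and 149.7 and at 56.1, 65.1 and 90.4 against 104 and 97.8 (log2 change 0.61, SE 0.15). For both genes the 4 deleted libraries lay above all 5 intact ones, against 0.684% of all genes. The selection by small p favours such a separation. Eid1, an inhibitor of the acetyltransferase p300, had a log2 change of 0.55 (SE 0.14) and the zinc finger gene Zfp141 one of 0.63 (SE 0.17). Eid1 shares 2544 bases of its span with Shc4 on the other strand, so its counts are uncertain to that extent. Fcer1a, Gata2, Ms4a3 and Ccl3 are described with their groups below. Col1a2, a chain of type I collagen, entered the list through a single library: it stood at 53.8 CPM in replicate 1 of the Casp8-deleted libraries without Ripk3 and between 0.270 and 3.54 in the other 8, and its log2 change of 4.69 became 1.43 without that library. By edgeR the adjusted p = 1.00 held for each of these 12 genes.

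**Figure D2:**
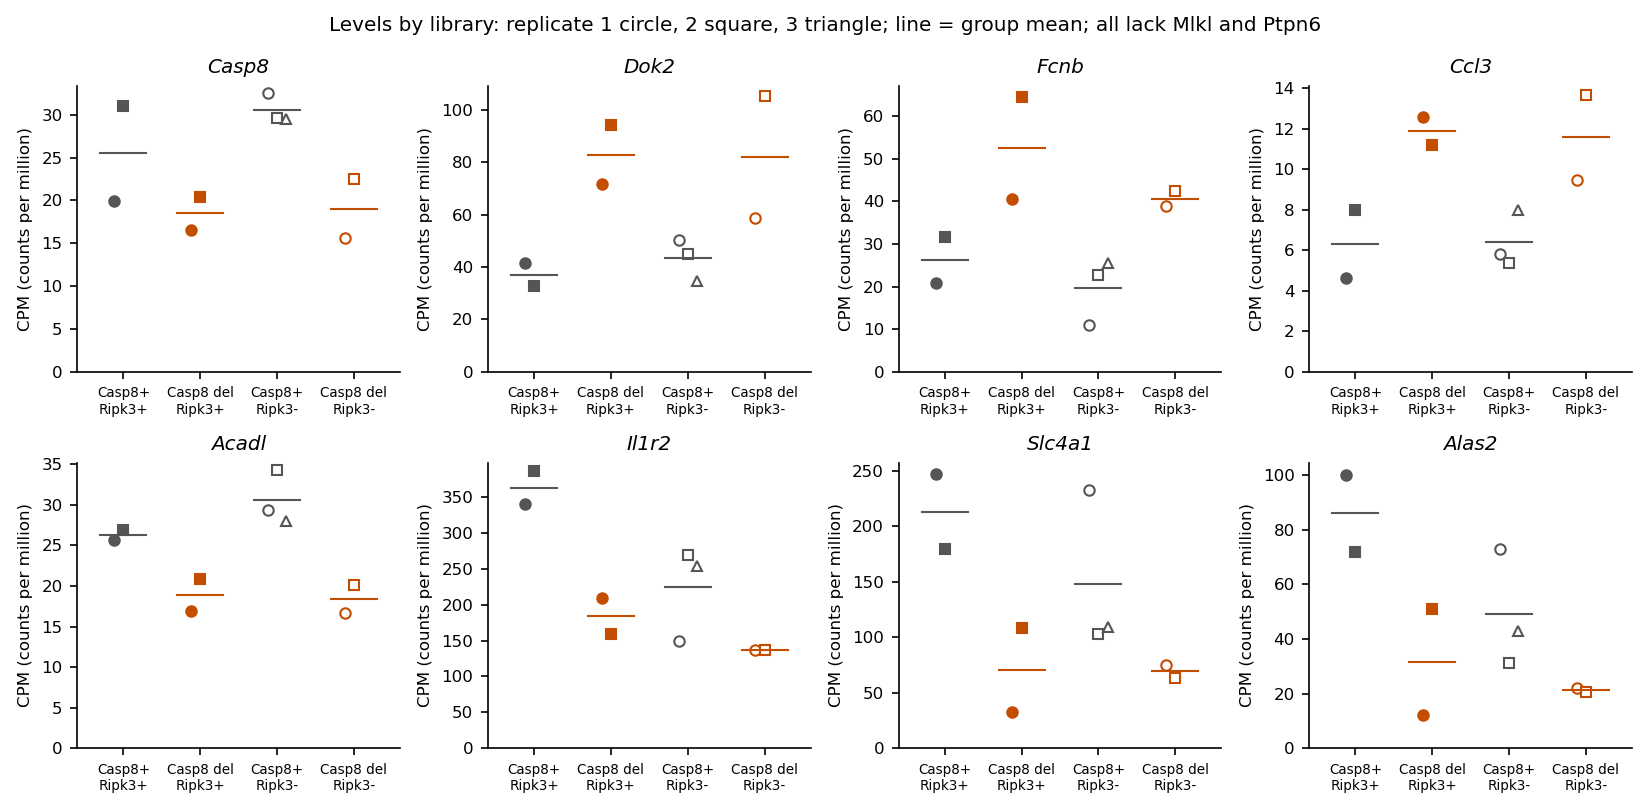
Each point is a library (circle, square and triangle for replicates 1, 2 and 3), the y axis is CPM from 0, the line is the group mean, and grey and orange mark Casp8 intact and deleted. Dok2, Fcnb and Ccl3 lie higher in the 4 deleted libraries and Acadl lower. The ranges of Il1r2, Slc4a1 and Alas2 meet across backgrounds, and those of Casp8 also within the background with Ripk3.

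On the lower side Acadl had the smallest p. It encodes the long-chain acyl-CoA dehydrogenase of mitochondrial fatty acid oxidation. It stood at 25.7 and 26.96 CPM with Casp8 and 16.9 and 20.9 without Casp8 where Ripk3 was present, and at 29.4, 34.3 and 28.1 against 16.6 and 20.1 where Ripk3 was absent. All 4 deleted libraries lay below all 5 intact ones, as was so for 0.285% of all genes on the lower side. Acadl was named for its small p, so this separation is no further evidence. The log2 change was -0.62 (SE 0.13), 0.651 times the intact level, with an edgeR adjusted p = 1.00 and a DESeq2 adjusted p = 0.0382. Acadl (chr1:66830839-66863309) starts 8.04 Mb from Casp8 on the same chromosome.

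Il1r2, the decoy receptor that binds interleukin-1 without signalling and is a typical gene of mature neutrophils, stood at 339.9 and 385 CPM against 209 and 159.5 with Ripk3. Without Ripk3 it stood at 149.8, 269 and 253 with Casp8 and 137 and 137 without it. The arms were apart in each background, by the least margin at replicate 1 of the intact libraries without Ripk3 (149.8 CPM). Its log2 change was -0.83 (SE 0.18), with a DESeq2 adjusted p = 0.0480 and an edgeR adjusted p = 1.00. Il1r2 lies on chromosome 1 as well (chr1:40084692-40125230), 18.7 Mb from Casp8, and Dnajb2, an HSP40 co-chaperone with a log2 change of -0.79 (SE 0.19), lies 16.4 Mb to the other side.

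Several of the other genes on the lower side are abundant in red cell precursors. Slc4a1, the band 3 anion exchanger of the red cell membrane, had a log2 change of -1.32 (SE 0.35), and Fech, the enzyme that inserts iron into haem, one of -0.89 (SE 0.23). Tmcc2 had a log2 change of -1.30 (SE 0.35), Xpo7, a nuclear export receptor, one of -0.94 (SE 0.23), and Fam46c, a non-canonical poly(A) polymerase, one of -0.82 (SE 0.20). The arms of all 5 were apart in each background, as was so for 0.962% of all genes on the lower side. These genes were named for small p and equal signs, so this separation is no further evidence. The remaining members were March3, a membrane ubiquitin ligase (-0.82, SE 0.21), Agrn, the proteoglycan agrin (-0.51, SE 0.13), Donson, a replication fork protein (-0.49, SE 0.13), and Ttbk2, a kinase of cilium assembly (-0.82, SE 0.23). Donson shares 12337 bases of its span with Son on the other strand, so its counts are uncertain to that extent. Agrn, Fech, Donson and Ttbk2 lay lower in all 4 deleted libraries than in all 5 intact ones, against 0.285% of all genes. They too were named for small p and equal signs, so their separation is no further evidence.

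Red cell genes lay lower as a group. Of 16 erythroid markers 15 were tested and Ahsp did not pass the filter on low counts. Of the 15, 13 had a negative log2 change, 10 had an unadjusted p under 0.05 on the lower side against 1.41% of all genes, and none passed the adjusted threshold. In 8 the deleted and intact libraries did not overlap in either background, against 0.962% of all genes on the lower side. Members of a list that move together are not separate observations, here and in the basophil and azurophil lists below. The median log2 change was -1.15, -1.35 with Ripk3 and -0.88 without it, beside a median of 0.00053 over all genes. In bulk RNA, fewer cells of a type and less RNA per cell cannot be told apart.

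The lowest red cell levels lay in a single library. Alas2, the first and rate-limiting enzyme of haem synthesis in red cells, stood at 100.1 and 71.7 CPM against 12.3 and 50.8 with Ripk3 and at 72.9, 31.3 and 43.03 against 22.1 and 20.5 without it (log2 change -1.31, SE 0.37). The alpha globin gene Hba-a1 stood at 1815 and 1242 CPM against 208 and 940.1 with Ripk3 and at 1319, 691 and 755 against 417 and 426 without it. It has the near-identical copy Hba-a2, between which reads may be divided, and Hba-a2 had a log2 change of -1.27 beside -1.26. For these genes the lowest value lay in replicate 1 of the Casp8-deleted libraries with Ripk3, and without that library the median of the list was -0.90. The markers Gata1 (0.02, SE 0.33) and Car1 (0.33, SE 0.66), which are on earlier in the lineage, had positive values within their errors, and Klf1 had -0.59 (SE 0.62). The mean log2 CPM of the list was 5.86 and 5.59 against 3.53 and 5.20 with Ripk3. Without it the means were 6.085, 5.21 and 4.74 against 4.99 and 4.49, so the arms overlapped there. The summed level of the list was 6339 and 4102 CPM against 754.4 and 3308 with Ripk3, and 4731, 2374 and 2693 against 1475 and 1510 without it. This level moves with Slc4a1, Fech, Tmcc2, Xpo7 and Fam46c above, and its part in their values was not tested. The promoter of Alas2 is shown because the GATA factors of red cells bind the letters AGATAA, which on both strands occur in 9.99% of 32851 RefSeq promoters (GRCm38.p6, the 250 bases before the start) and in 3 of the 12 promoters found for 11 of the 16 listed genes. The capitals mark the match, written on the other strand, 86 bases before the start, in chrX:150547167-150547366 (plus strand). The stretch printed is the first 200 of the 250 bases and ends 50 bases before the start.
Alas2: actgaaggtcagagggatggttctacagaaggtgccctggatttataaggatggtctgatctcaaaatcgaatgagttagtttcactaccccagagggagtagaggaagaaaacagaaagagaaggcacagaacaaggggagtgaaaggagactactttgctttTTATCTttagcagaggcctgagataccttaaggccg

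Basophil and mast cell genes lay higher. Of 10 markers, all tested, 8 had a positive log2 change, and 7 had an unadjusted p under 0.05 on the higher side against 1.71% of all genes. The median log2 change was 0.70, 0.45 with Ripk3 and 0.89 without it, and 0.40 without replicate 2 of the Casp8-deleted libraries that lack Ripk3. Fcer1a, the alpha chain of the high-affinity receptor for immunoglobulin E, stood at 9.81 and 11.3 CPM against 15.6 and 14.04 with Ripk3 and 5.30, 5.14 and 5.57 against 9.79 and 19.5 without it (log2 change 1.02, SE 0.24). Gata2, a transcription factor of blood progenitors, basophils and mast cells, stood at 31.6 and 47.9 CPM against 53.95 and 54.9 and at 29.3, 30.8 and 25.3 against 42.05 and 71.4 (log2 change 0.75, SE 0.19). It shares 4394 bases of its span with Gm38708 on the other strand, so its counts are uncertain to that extent. The basophil protease Prss34 stood at 219 and 254 CPM against 339.8 and 321 and at 163, 204 and 119 against 215 and 428 (log2 change 0.76, SE 0.22). The arms of Fcer1a, Gata2 and Prss34 did not overlap in either background, a pattern shown by 1.59% of all genes on the higher side. Mcpt8, the basophil protease mMCP-8, had a log2 change of 0.75 (SE 0.22), Ms4a2 0.66 (SE 0.23), Cpa3 0.52 (SE 0.22) and Cd200r3 0.75 (SE 0.31). The 2 negative values were those of Kit (-0.15, SE 0.27) and Hdc (-0.42, SE 0.25), the histamine-forming enzyme, which neutrophils also express. The summed level of the list, in which Hdc is the largest term, was 2091 and 2212 CPM against 1688 and 1579 with Ripk3 and 986.8, 971.9 and 1682 against 1166 and 1626 without it.

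Genes of azurophil granules, which neutrophils make at the promyelocyte stage, lay higher in 9 of 11 tested, and 6 had an unadjusted p under 0.05 on the higher side, against 1.71% of all genes. The median log2 change was 0.67, 0.27 with Ripk3 and 0.64 without it. The mean log2 CPM of the list was 4.38 and 4.77 against 4.51 and 5.08 with Ripk3, where the arms overlapped. Without it the means were 3.67, 4.61 and 3.595 against 5.32 and 4.73. Ms4a3, a marker of granulocyte and monocyte progenitors, stood at 5.51 and 7.40 CPM against 8.48 and 14.3 with Ripk3 and at 1.79, 5.41 and 3.84 against 12.3 and 9.36 without it (log2 change 1.22, SE 0.31), with no overlap between the 4 and the 5 libraries. The serine protease Prss57 stood at 13.3 and 9.73 CPM against 16.1 and 21.4 and at 6.37, 8.88 and 12.5 against 14.9 and 13.9 (log2 change 0.67, SE 0.20). The classic contents rested largely on 1 library. Mpo, myeloperoxidase, stood at 52.5 and 67.3 CPM against 50.9 and 91.4 with Ripk3 and at 32.3, 82.7 and 13.8 against 273 and 81.9 without it, so that replicate 1 of the last group was above every other library. Prtn3 (proteinase 3), Elane (neutrophil elastase) and Ctsg (cathepsin G) peaked in the same library, at 60.4, 42.6 and 27.7 CPM, and their log2 changes were 1.62 (SE 0.61), 1.39 (SE 0.61) and 1.02 (SE 0.39). That library also held the most stromal RNA: 6 tested markers of stromal and endothelial cells summed to 182.1 CPM in it and to 32.09 to 61.14 in the other 8, with Col1a1 at 92.2 CPM against 3.79 to 8.90. The stromal list had 3 of 6 members at an unadjusted p under 0.05 on the higher side and a median log2 change of 0.71, which was 0.16 without that library. The part of these cells in the granule values was not tested, and without the library the median of the azurophil list was 0.55.

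Later granule genes had medians nearer 0. Of 18 specific granule genes 16 had a positive log2 change, with a median of 0.14, and 1 had an unadjusted p under 0.05 on the higher side (1.71% of all genes). That gene was Cebpe, the transcription factor that drives specific granule formation, at 99.6 and 108 CPM against 114 and 139 with Ripk3 and 46.7, 68.4 and 73.7 against 92.4 and 109.8 without it (log2 change 0.50, SE 0.15). Its arms were apart in each background. Ltf (lactoferrin) had a log2 change of 0.18 (SE 0.27) and Camp (cathelicidin) 0.30 (SE 0.28). In the list of gelatinase granule and maturation genes (17 tested, median 0.01), Il1r2 was the member with an unadjusted p under 0.05 (lower, against 1.41% of all genes), and Mmp8, the neutrophil collagenase, had -0.27 (SE 0.23). Of 10 genes of the phagocyte oxidase list, median 0.06, Mpo had an unadjusted p under 0.05 (higher, against 1.71% of all genes) and the oxidase subunit Cybb had a log2 change of 0.19 (SE 0.19).

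**Figure D3:**
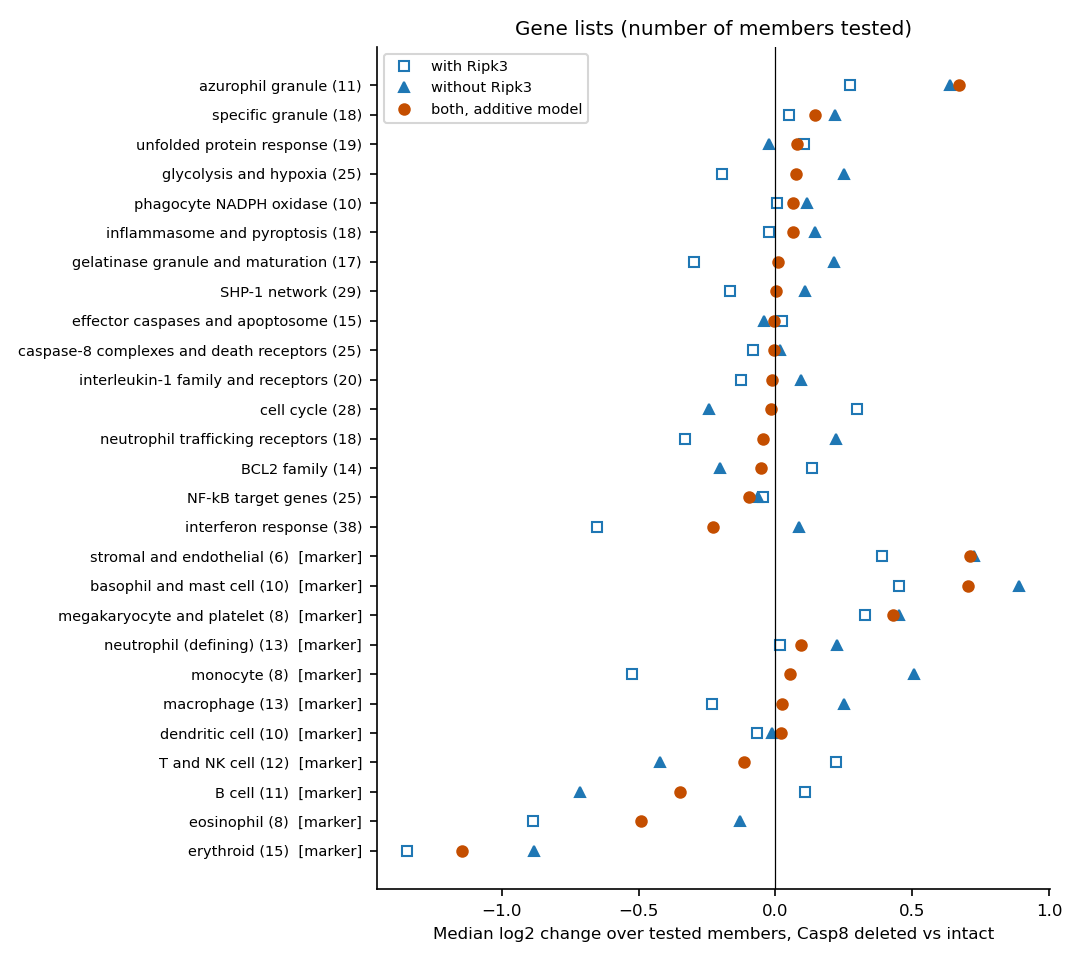
The x axis is the median log2 change with Casp8 deletion over the tested members of each list (number in brackets), for both backgrounds together (circles), with Ripk3 (squares) and without it (triangles). Erythroid genes lie farthest to the left at -1.15, stromal, basophil and azurophil genes to the right at 0.71, 0.70 and 0.67, and interferon genes at -0.65 with Ripk3 and 0.09 without it.

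The genes of the caspase-8 complexes and death receptors had changes of both signs around 0. Of the 25 in the list, 12 had positive and 13 negative log2 changes, with a median of -0.0047, and 3 had an unadjusted p under 0.05 (1 higher, 2 lower, against 1.71% and 1.41% of all genes): Ticam1, Fasl and, as the targeted gene, Casp8. Ticam1, the adaptor TRIF below Toll-like receptors, stood at 17.1 and 18.3 CPM against 18.3 and 19.5 with Ripk3 and at 10.8, 15.3 and 14.2 against 18.7 and 19.3 without it (log2 change 0.32, SE 0.14). Fasl, the ligand of the death receptor Fas, was at or below 1.07 CPM in every library (log2 change -0.79, SE 0.34). The regulator closest in sequence and position, Cflar, which encodes the catalytically inactive partner c-FLIP and lies beside Casp8, stood at 129 and 165 CPM against 128 and 105 with Ripk3 and at 85.3, 81.4 and 124 against 112 and 105 without it (log2 change -0.06, SE 0.16).

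Among the ligands and receptors, Fas had a log2 change of 0.15 (SE 0.17), Tnfrsf1a, the main receptor of tumour necrosis factor, -0.0047 (SE 0.17), Tnfrsf10b, the TRAIL receptor, -0.19 (SE 0.26), and Tnfsf10, which encodes TRAIL, -0.41 (SE 0.36). Without replicate 2 of the Mlkl-/- Ptpn6{delta}PMN group the value of Tnfsf10 was -0.06. Among the adaptors and kinases, Fadd had 0.10 (SE 0.21), Tradd 0.16 (SE 0.16), Ripk1 0.01 (SE 0.13) and the nucleic acid sensor Zbp1 -0.39 (SE 0.33). Without replicate 3 of the Ripk3-/- Mlkl-/- Ptpn6{delta}PMN group the value of Zbp1 was -0.14. The ubiquitin ligases that hold RIPK1 in its survival complex had values of -0.04 for Birc2, -0.24 for Birc3, -0.06 for Xiap and 0.03 for Traf2. The subunits of the linear ubiquitin ligase had 0.00 (Rnf31), 0.02 (Rbck1) and 0.09 (Sharpin), and the enzymes that trim ubiquitin chains, with their partner Spata2, had -0.03 (Cyld), 0.19 (Otulin), -0.13 (Tnfaip3) and -0.18 (Spata2). None of these changes exceeded 2 SE.

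Downstream of caspase-8 the effector caspases and apoptosome genes (15 tested) had a median of -0.0044 with none at an unadjusted p under 0.05. The smallest p was that of Htra2, a mitochondrial protease released in apoptosis (0.29, SE 0.15). In the BCL2 family (14 tested, median -0.05) Bcl2l1 (lower) and Bcl2l2 (higher) had an unadjusted p under 0.05, against 1.41% and 1.71% of all genes in these directions. The anti-apoptotic gene Bcl2l1, which encodes BCL-XL, stood at 107 and 90.7 CPM against 69.1 and 77.9 with Ripk3 and 80.4, 62.8 and 67.4 against 51.2 and 65.8 without it (log2 change -0.34, SE 0.12). Red cell precursors also express Bcl2l1. Its relative Bcl2l2 (BCL-W) had 0.66 (SE 0.25) at 1.31 to 4.38 CPM. Of 18 inflammasome and pyroptosis genes, 13 were positive with a median of 0.06 and none had an unadjusted p under 0.05. In the interleukin-1 family (20 tested) Il1r2 was the member below that level (lower, against 1.41% of all genes), and Il1rap, the shared signalling chain of the receptor, had -0.66 (SE 0.33), or -0.27 without replicate 2 of the Mlkl-/- Ptpn6{delta}PMN group.

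NF-kB target genes as a list did not lie higher: 7 of 25 had positive log2 changes, with a median of -0.10. The 3 with an unadjusted p under 0.05 were all on the higher side, where 1.71% of all genes lay, and encode the secreted factors Ccl3, Ccl4 and Il6. Ccl3, the chemokine MIP-1 alpha, stood at 4.65 and 7.98 CPM against 12.6 and 11.2 with Ripk3 and at 5.80, 5.37 and 7.998 against 9.49 and 13.7 without it (log2 change 0.88, SE 0.21). Its neighbour Ccl4 stood at 2.22 and 2.68 CPM against 5.91 and 4.04 and at 2.90, 2.24 and 3.69 against 4.09 and 3.80 (log2 change 0.69, SE 0.24), and the cytokine Il6 at 0.506 and 0.730 CPM against 1.38 and 0.999 and at 0.609, 0.850 and 0.561 against 1.13 and 1.13 (log2 change 0.83, SE 0.27). In all 3 the 4 deleted libraries lay above all 5 intact ones, as was so for 0.684% of all genes on the higher side. For Ccl4 the margin was small (3.80 against 3.69 CPM). The 3 were named for their small p, so this separation is no further evidence. The annotated spans of Ccl3 and Ccl4 overlap by 755 bases on opposite strands, so their values are not independent. Among other members of the list, the log2 change was 0.01 (SE 0.39) for Tnf, -0.22 (SE 0.27) for Nfkbia, -0.13 (SE 0.13) for Tnfaip3 and -0.41 (SE 0.19) for Rel. Basophils also make Ccl3, Ccl4 and Il6, and the part of the basophil markers above in these values was not tested.

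Interferon-response genes had changes of unlike sign in the 2 backgrounds. With Ripk3 all 38 tested genes lay lower with Casp8 deletion, with a median log2 change of -0.65. Without Ripk3 31 of the 38 lay higher, with a median of 0.09. In the additive model 36 of 38 were negative with a median of -0.23, none had an unadjusted p under 0.05, and the median without replicate 2 of the Mlkl-/- Ptpn6{delta}PMN group was -0.07 and without replicate 3 of the Ripk3-/- Mlkl-/- Ptpn6{delta}PMN group -0.11. The genes of this list rise and fall together, so their count does not stand for 38 separate observations. The mean log2 CPM of the list was 6.06 and 6.61 against 5.51 and 5.87 with Ripk3, and 5.10, 5.24 and 5.97 against 5.38 and 5.87 without it. The 3 highest libraries were thus the Casp8-intact ones with Ripk3 and replicate 3 of the Casp8-intact ones without Ripk3, the library that stood apart on the first principal component.

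Rsad2, which encodes the antiviral enzyme viperin, stood at 315 and 384 CPM against 155 and 243 with Ripk3 and at 143, 141 and 288 against 126 and 214 without it. Isg15, a ubiquitin-like modifier, stood at 36.2 and 47.4 CPM against 22.8 and 35.7 and at 15.4, 16.9 and 33.3 against 15.7 and 26.6, and Ifit3 at 97.1 and 149 CPM against 54.95 and 96.2 and at 30.5, 42.9 and 96.96 against 44.5 and 75.5. Ifit3 has the close copy Ifit3b, with which it may share reads. Without Ripk3 the spread of the intact arm covered both deleted libraries for Isg15 and Ifit3 and the second of them for Rsad2. The interaction had an edgeR p of 0.247, 0.409 and 0.283 for the 3 genes, with an adjusted p of 0.84, 0.872 and 0.847. The promoters of Isg15 and Ifit3 are shown because these genes move together across the libraries. The letters GAAA, any 2 bases and GAAA again, the core of the element that interferon-activated factors bind, were found on either strand in 2.98% of 32851 RefSeq promoters and in 15 of the 35 promoters found for 29 of the 39 listed genes (42.9%). Capitals mark the matches. Isg15 (chr4:156200819-156201068, minus strand) holds 3 that overlap, 78, 72 and 66 bases before the start, and Ifit3 (chr19:34583279-34583528, plus strand) holds 2 on the other strand, 156 and 122 bases before the start.
Isg15: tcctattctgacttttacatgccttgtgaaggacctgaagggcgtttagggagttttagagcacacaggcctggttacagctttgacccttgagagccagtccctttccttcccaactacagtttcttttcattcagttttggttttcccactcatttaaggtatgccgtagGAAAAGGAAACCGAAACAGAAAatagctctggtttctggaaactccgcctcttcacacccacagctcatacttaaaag
Ifit3: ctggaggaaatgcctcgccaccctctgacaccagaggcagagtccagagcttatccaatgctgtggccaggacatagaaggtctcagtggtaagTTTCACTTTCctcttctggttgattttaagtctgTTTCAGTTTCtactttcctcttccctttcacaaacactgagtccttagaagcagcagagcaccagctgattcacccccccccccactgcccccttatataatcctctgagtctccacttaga

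**Figure D4:**
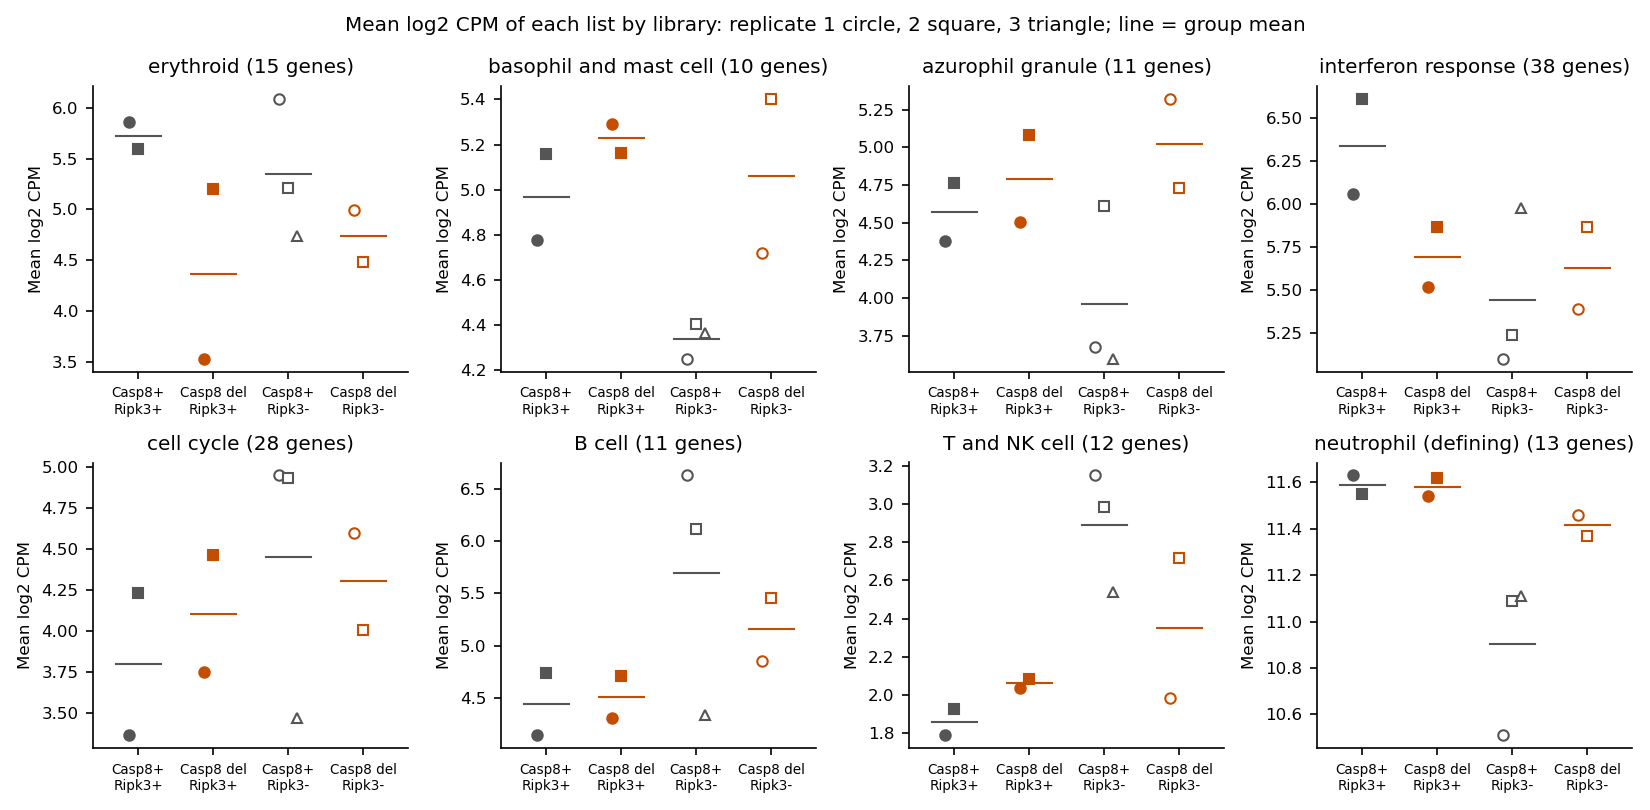
The y axis is the mean log2 CPM of the tested members of each list, which does not start at 0, with 1 point per library (circle, square and triangle for replicates 1, 2 and 3) and a line at the group mean. The erythroid mean is lowest at 3.53 in replicate 1 of the deleted libraries with Ripk3, and replicate 3 of the Casp8-intact libraries without Ripk3 lies away from its 2 partners for interferon, cell cycle and B cell genes.

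The Casp8 by Ripk3 interaction passed the adjusted threshold for no gene in edgeR (0% of 15067), with 827 at an unadjusted p under 0.05 (5.49%), and for 14 genes in DESeq2 (0.168% of the 8341 with an adjusted p). The count depended on the library that stood apart: without replicate 3 of the Ripk3-/- Mlkl-/- Ptpn6{delta}PMN group edgeR called 17 genes and 3348 had an unadjusted p under 0.05. Without replicate 1 of the Casp8-deleted libraries that lack Ripk3 it called 2, Sncaip and Ctse. Jchain, the joining chain of polymeric immunoglobulins, had the smallest p. It stood at 53.6 and 43.02 CPM with Casp8 and 30.3 and 27.3 without Casp8 where Ripk3 was present, and at 10.1, 6.80 and 12.3 against 29.8 and 31.3 where Ripk3 was absent. Casp8-deleted libraries thus held the lower values with Ripk3 and the higher ones without it, and their own levels were nearly equal. The log2 interaction was 2.40 (SE 0.34, edgeR adjusted p = 0.689, DESeq2 adjusted p = 7.34e-06). Plasma cells are the usual source of Jchain, and the B cell markers whose sums are given above also differed between the libraries without Ripk3. Their part in the value was not tested.

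Nr4a1, an immediate early nuclear receptor, took the opposite course. It stood at 6.47 and 4.67 CPM against 11.8 and 9.22 with Ripk3 and at 20.01, 23.3 and 19.6 against 12.1 and 7.42 without it (interaction -2.02, SE 0.39, edgeR adjusted p = 0.838, DESeq2 adjusted p = 0.00878). Ddi2, a protease that activates the transcription factor NFE2L1, stood at 48.3 and 76.2 CPM against 27.7 and 20.7 and at 27.5, 27.9 and 24.7 against 39.3 and 32.5 (interaction 1.79, SE 0.32). Ddi2 overlaps Rsc1a1 on the same strand by 2154 bases, so the counts of the pair are uncertain. Tctex1d2, a dynein light chain, had an interaction of -1.22 (SE 0.22), Atrn, attractin, one of 1.13 (SE 0.23), and Sncaip, synphilin-1, one of 6.32 (SE 1.09), the last with values between 0.179 and 7.30 CPM.

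Cell cycle genes also had unlike signs, with 24 of 28 positive with Ripk3 (median 0.30) and 1 of 28 positive without it (median -0.24), and none had an unadjusted p under 0.05 in the additive model (median -0.01). Birc5, survivin, stood at 12.5 and 19.6 CPM against 24.5 and 31.9 with Ripk3 and at 31.4, 28.1 and 17.9 against 23.7 and 17.6 without it (interaction -1.13, SE 0.43, edgeR adjusted p = 0.838). The list mean was 3.36 and 4.23 against 3.75 and 4.46 and 4.95, 4.93 and 3.47 against 4.60 and 4.01 on the log2 CPM scale. The 2 libraries richest in B cell markers also held the highest cell cycle means, and the part of B cells was not tested. Lists of B cell and of T and NK cell markers had medians of 0.11 and 0.22 with Ripk3 and -0.71 and -0.42 without it, with no member at an unadjusted p under 0.05 in the additive model.

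Glycolysis and hypoxia genes had 5 of 25 positive with Ripk3 (median -0.19) and 24 of 25 without it (median 0.25). Over all genes 8173 and 6974 of 15067 were positive, and members of a list that move together are not separate observations. With Ripk3 the list mean was 7.97 and 7.87 log2 CPM (Casp8 intact) against 7.70 and 7.72 (deleted). Without it the means were 7.26, 7.33 and 7.66 against 7.65 and 7.71, so intact replicate 3 lay among the deleted libraries. Hif1a was the member with an unadjusted p under 0.05 in the additive model (lower, against 1.41% of all genes). This gene, the oxygen-regulated subunit of the hypoxia factor, stood at 278 and 300.4 CPM against 159 and 116 with Ripk3 and at 163, 98.4 and 159 against 135 and 132 without it (log2 change -0.52, SE 0.22). Neutrophil trafficking receptors had 4 of 18 positive with Ripk3 (median -0.33) and 16 of 18 without it (median 0.22). Their mean was 8.93 and 8.92 log2 CPM against 8.66 and 8.54 with Ripk3. Without it the means were 8.24, 8.40 and 8.65 against 8.75 and 8.63, and intact replicate 3 again lay among the deleted libraries. Cxcr1, a receptor of neutrophil-attracting chemokines, stood at 22.1 and 18.7 CPM against 6.95 and 8.45 and at 8.70, 6.53 and 10.2 against 13.4 and 7.10 (interaction 1.68, SE 0.44, edgeR adjusted p = 0.838). The intact libraries with Ripk3 held its 2 highest values. C3ar1, the receptor of the complement fragment C3a, had a log2 change of 0.52 (SE 0.20) in the additive model.

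Of 29 genes of the SHP-1 network, 15 were positive with a median of 0.0041, and 2 had an unadjusted p under 0.05, both on the higher side, against 1.71% of all genes. These were Fcgr2b, the inhibitory Fc receptor, at 38.8 and 38.4 CPM against 43.2 and 46.4 with Ripk3 and 26.1, 33.8 and 36.02 against 39.9 and 39.7 without it (log2 change 0.27, SE 0.11), and Clec12a, a lectin with a motif that recruits SHP-1, with 0.38 (SE 0.17). The kinase Syk, below activating receptors, had -0.21 (SE 0.13) with its arms apart in each background. Of 19 genes of the unfolded protein response, 11 were positive with a median of 0.08 and none had an unadjusted p under 0.05.

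Among genes near Casp8 small p-values on the lower side took a larger share than among all genes. Of 97 genes tested whose start lies within 10 Mb of that of Casp8, leaving out Casp8, 8 had an unadjusted p under 0.05 and a negative log2 change (8.25%, against 1.41% of all genes) and 2 a positive one. None passed the adjusted threshold in edgeR, DESeq2 called Acadl among them, and the median was -0.05. The window of 5 Mb held 4 lower and 1 higher of 60, and that of 20 Mb 11 lower and 4 higher of 190. Beside Acadl the lower genes included Trak2, Nrp2 and Fzd5, and the higher ones were Ica1l and Rpe, an enzyme of the pentose phosphate pathway. Trak2, a mitochondrial motor adaptor that starts 0.105 Mb from Casp8, stood at 153 and 213 CPM against 105 and 114 with Ripk3 and at 112, 102 and 111 against 105 and 96.5 without it (log2 change -0.39, SE 0.15). Nrp2, the receptor neuropilin-2, stood at 1.87 and 1.41 CPM against 0.762 and 0.591 and at 1.29, 1.24 and 1.40 against 0.958 and 0.769 (log2 change -0.90, SE 0.27). The names of this window were taken after their values were seen. DNA around the floxed Casp8 allele travels with it in a cross, so for these genes the loss of caspase-8 and a difference in the flanking DNA cannot be told apart.

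**Figure D5:**
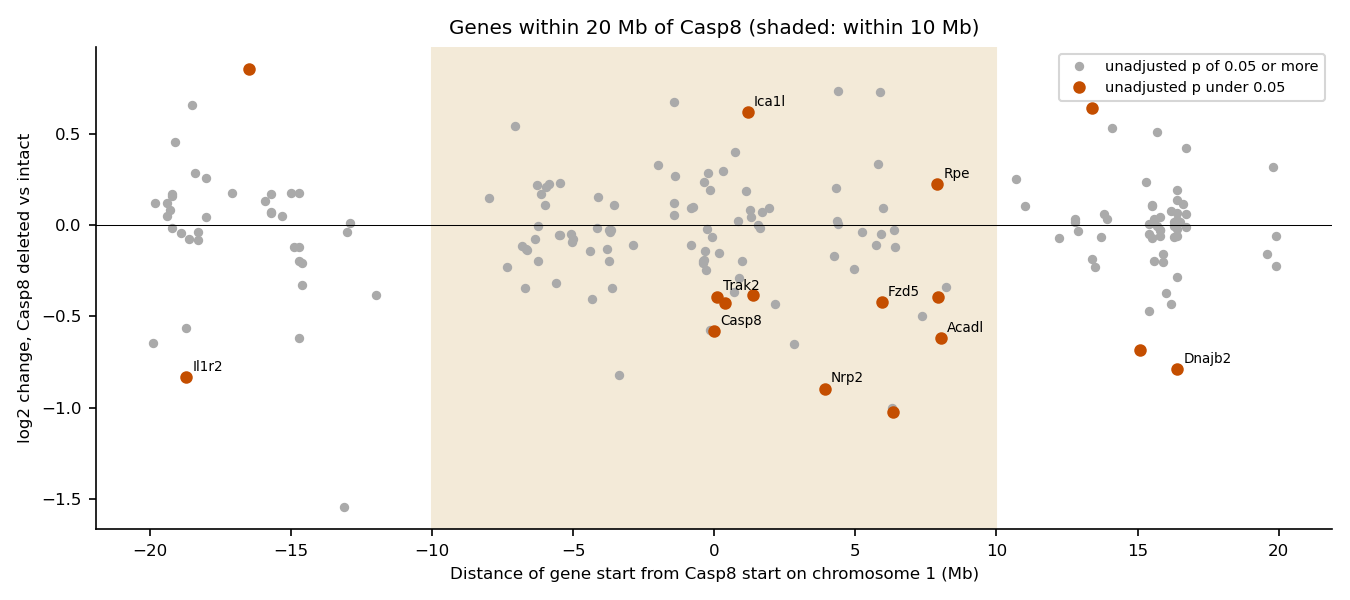
Each point is a tested gene, placed by the distance of its start from that of Casp8 (x axis, Mb, shading within 10 Mb) and its log2 change with Casp8 deletion (y axis). Orange points have an unadjusted p under 0.05, and within the shading, beside Casp8, 8 of them lie below 0 and 2 above. Labels mark genes named in the text.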

How the data were processed

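Poly(A) RNA libraries of bone marrow neutrophils were analysed from the gene table that the authors deposited, which holds estimated counts per gene symbol. Per the submitters' processing notes these were made with Salmon 0.14.1 and the mouse build GRCm38.p6, and DESeq2 is named too; how transcripts were summed to genes and whether strand was used are not given in the sources used here. Of the deposited values 22.7% were not whole, and they were rounded.

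The 9 libraries were grouped by genotype label. The 15067 of 35741 symbols that passed filterByExpr (minimum count 10, minimum total 15) were fitted with edgeR 4.0.16 in R 4.3.3 (TMM scaling, quasi-likelihood F test, Ripk3 status plus Casp8 status), and p-values were adjusted by Benjamini-Hochberg over all of them, with a threshold of 0.05. The interaction was fitted with a product term. CPM use TMM library sizes, log2 CPM a prior count of 2, and the SE is the size of the log2 change divided by the square root of F. The steps were tested on simulated data. A call says that an effect differs from the spread of 2 or 3 libraries a group, and depth of this size leaves genes under about 1 CPM with few counts.

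Named genes were the 12 with the smallest p in each direction among those at a mean of 5 CPM or more with equal signs in both backgrounds, and the 6 with the smallest interaction p. Other names come from fixed lists, or are stated to be chosen after their values were seen; the 5 genes called by DESeq2 are among the first 24. The comparison, the members and the lists were chosen with earlier results of these data known. Coordinates come from RefSeq GRCm38.p6, in which 14469 of the 15067 symbols matched (13995 directly, 474 by synonym), and overlaps take strand from the GENCODE vM21 annotation. Promoter sequences are from RefSeq. Alternatives were DESeq2 1.42.0, its size factors in edgeR, no filter, a fit of 23 libraries, each Ripk3 background alone, a replicate block, and each library left out in turn.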

Additional observations from a re-analysis of the deposited data

Results flagged for a closer look

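The log2 change with Casp8 deletion had opposite signs in the 2 Ripk3 backgrounds, with arms that did not overlap in either, for 630 of 15067 genes (4.18%). How many would part so by the order of libraries alone was not estimated. Of the 630, 8 are named in the report: 5 of the 6 genes with the smallest interaction p and 3 members of the caspase-8 list. The interaction was tested for each, and by edgeR none passed the adjusted threshold, with adjusted p-values from 0.689 to 0.839. Lower with Casp8 deletion where Ripk3 was present and higher where it was absent were Jchain (log2 interaction 2.397), Sncaip (6.321), Ddi2 (1.789), Tnfrsf10b (1.16) and Tnfrsf1a (0.6816). The reverse held for Tctex1d2 (-1.22), Nr4a1 (-2.021) and Birc2 (-0.2523).

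Tnfrsf1a, the main receptor of tumour necrosis factor, stood at 587 and 478 CPM against 434 and 385 with Ripk3 and at 303, 344 and 426 against 443 and 438 without it. The TRAIL receptor Tnfrsf10b stood at 4.96 and 5.55 CPM against 2.62 and 3.32 with Ripk3 and at 2.90, 2.40 and 2.06 against 3.05 and 3.17 without it. For both receptors the 2 highest libraries were the Casp8-intact ones with Ripk3. Birc2, a ubiquitin ligase of RIPK1, ranged from 31.2 to 37.2 CPM over all 9 libraries. DESeq2 gave adjusted interaction p-values of 7.34e-06 for Jchain, 0.00357 for Ddi2, 0.00878 for Nr4a1, 0.0167 for Tctex1d2 and 0.0301 for Atrn. No group holds 4 or more libraries, so no library was tested as an outlier.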

How the results depend on the processing

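Against 0 calls with Casp8 deletion in the additive model, DESeq2 called 5, the fit of all 23 libraries 1 (AA388235), and the libraries with Ripk3 alone 4 (Lpar6, Cnnm2, Eif3j1 and Gm2260, named after their values were seen), while the size factors of DESeq2 put into edgeR, testing without the low-count filter, the libraries without Ripk3 alone and each library left out in turn gave 0. Unadjusted p-values under 0.05 numbered 469, against 1350 with Ripk3 alone, 289 without Ripk3 alone, 953 with all 23 libraries, and 388 to 1268 with each library left out, the last without replicate 3 of the Ripk3-/- Mlkl-/- Ptpn6{delta}PMN group. With DESeq2's size factors 221 of them were higher and 247 lower, against 257 and 212. For the interaction, with 0 calls and 827 unadjusted, no filter gave 5 calls, DESeq2 14, all 23 libraries 1, and each library left out 0 to 17. The causes were not tested.

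Whether replicate numbers pair the libraries was not settled. With Ripk3 the deviations of same-numbered libraries correlated at 0.168, and 2 replicates a group fix the mirror value of -0.168 for the others. Without Ripk3 same-numbered libraries correlated at -0.0571 and -0.0755. With a replicate block the additive model called 0 genes with 1087 unadjusted, and the interaction 878, where replicate 3 has no partner and carries no weight.

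List medians moved beyond the spread between libraries mainly when 1 Ripk3 background was taken alone. With Ripk3 they were -0.653 for interferon genes, -0.301 for gelatinase genes, -0.198 for glycolysis, -0.335 for trafficking receptors, -0.151 for the SHP-1 network, 0.218 for T and NK cells and 0.449 for basophils. Without Ripk3 they were -0.22 for the BCL2 family, 0.237 for glycolysis, 0.208 for trafficking receptors and -0.443 for T and NK cells. With each library left out the basophil median ran from 0.401 to 0.826. Of 405 alternative list medians, 78 had the other sign than in the main fit. Of 1646 alternative values of 103 genes, 1580 kept their sign and 6 passed the threshold.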

Other observations

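Megakaryocyte and platelet genes lay higher in 8 of 8 tested, against 7554 of 15067 over all genes, with a median log2 change of 0.43. Of the 8, 2 had an unadjusted p under 0.05 on the higher side, against 1.71% of all genes. The list mean was 0.940 and 0.414 log2 CPM against 1.244 and 1.226 with Ripk3. Without it the means were 0.559, 1.06 and 1.315 against 2.11 and 0.820. The highest was that of replicate 1, the library with the most stromal RNA, and its partner lay within the intact range. Itga2b, the platelet integrin alpha chain, stood at 16.99 and 20.5 CPM against 23.8 and 22.2 with Ripk3 and at 13.9, 16.8 and 14.1 against 20.5 and 29.8 without it (log2 change 0.55, SE 0.16), with its arms apart in each background. Basophils, mast cells and progenitors also express Itga2b. Eosinophil markers lay lower in 7 of 8, with a median of -0.49 and none at an unadjusted p under 0.05. Monocyte markers had medians of -0.52 with Ripk3 and 0.51 without it over 8 genes, and macrophage markers -0.23 and 0.25 over 13. In the macrophage list Cd5l, a secreted scavenger receptor protein, had a log2 change of 0.70 (SE 0.31). Dendritic cell markers had 5 of 10 on the higher side and a median of 0.02.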
